A study of Mus musculus with 3 samples.

Results

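The immediate early and dissociation response genes are 36 genes that cells switch on soon after a stimulus and that enzymatic dissociation of tissue also turns on. Their list was drawn up with earlier results of these data known, and all 36 were found by symbol among the 31053 genes counted in each of 3 libraries. Single cells had been isolated from the hippocampus of wild-type C57BL/6 mice 2 years old, and their RNA was counted with the 10x Chromium 3′ chemistry. The 3 libraries, here replicates 1, 2 and 3, form a single group with no transgene, treatment or younger control, so nothing below compares ages or conditions. The tissue had been digested with papain at about 20 units/ml, and myelin had been taken out with beads. The title of replicate 3 gives 25 months while its age label matches the others. Hippocampi number 6 over the series, but which mice, or how many, stand behind a library is not given, so the p-values below measure only the spread between these libraries. The comparisons asked how the level of each gene differed between 6 classes of cells and which of the genes varied together from cell to cell.

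As background, signals such as calcium entry, growth factors, cytokines or shear reach these genes through kinases and through factors already present in the nucleus, among them SRF with its ELK partners, CREB and NF-kB, so that no new protein is needed for their transcription. Many of the products are transcription factors (the AP-1, EGR, NR4A and KLF families), and others close the loop again: the DUSP phosphatases switch off MAP kinases, ZFP36 proteins mark short-lived messages for decay, IkB-alpha holds NF-kB in the cytoplasm and SOCS3 limits cytokine receptors. In dissociated brain tissue the same genes are also known to be turned on by the handling itself.

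A cell was placed in a class if at least 1 UMI (unique molecular identifier, the tag of a captured RNA molecule) of each of 3 markers was found and no other class was complete. The classes were endothelial cells, which line blood vessels (Cldn5, Flt1, Pecam1), astrocytes (Slc1a2, Aqp4, Gja1), microglia, the resident immune cells (Cx3cr1, P2ry12, C1qa), ciliated ependymal cells of the ventricle wall (Ccdc153, Tmem212, Foxj1), pericytes, which wrap capillaries (Vtn, Kcnj8, Abcc9), and oligodendrocyte precursor cells or OPCs (Pdgfra, Cspg4, C1ql1). They held 4223 endothelial cells, 1782 astrocytes, 1643 microglia, 248 ependymal cells, 213 OPCs and 107 pericytes of 12115 kept cells, so 8216 cells had a class. Libraries kept 945 to 6240 cells with a median of 4268 to 5689 UMIs each, and replicate 2 was the small one throughout: it gave 8 ependymal cells, 10 OPCs and 17 pericytes. Its 8 ependymal cells fell under the minimum of 10 cells for a test and entered no test. Between libraries 10 barcodes of kept cells were shared. Of 622 kept cells complete for more than 1 class, 432 were complete for the astrocyte and ependymal markers and for no other class, and were left out of both classes. Their median UMIs were 9995, 14060.5 and 11987 in replicates 1, 2 and 3. Cells kept as ependymal had medians of 3640, 1256 and 2999, so the ependymal values below are those of shallower cells.

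RefSeq windows of the 250 bases before the start on GRCm38.p6 matched 28 of the 36 genes by symbol. Of these, 6 are shown: Fos and Junb, which stood in the strongest cell-to-cell correlations of endothelial and ependymal cells, Btg2, whose window held both a CRE and an EGR site, Klf4 and Nr4a2, which were among the genes furthest above the other classes in endothelial cells, and Nfkbia, a leading gene of the microglia. Each window lies directly upstream of the transcript, at chr12:85473640-85473889, plus strand for Fos, chr8:84978749-84978998, minus strand for Junb, chr1:134079156-134079405, minus strand for Btg2, chr4:55532476-55532725, minus strand for Klf4, chr2:57124004-57124253, minus strand for Nr4a2 and chr12:55492648-55492897, minus strand for Nfkbia. Capitals mark exact matches, on either strand, to the CRE (TGACGTCA, bound by CREB and ATF factors), the AP-1 site (TGANTCA), the EGR site (GCGNGGGCG), the TATA box (TATAAA), the CArG box of SRF or the NF-kB site.
Fos: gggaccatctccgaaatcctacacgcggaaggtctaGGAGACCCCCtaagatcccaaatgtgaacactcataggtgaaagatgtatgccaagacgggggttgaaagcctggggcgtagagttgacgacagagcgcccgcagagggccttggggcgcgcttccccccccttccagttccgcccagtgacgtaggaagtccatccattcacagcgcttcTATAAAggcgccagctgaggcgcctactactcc
Junb: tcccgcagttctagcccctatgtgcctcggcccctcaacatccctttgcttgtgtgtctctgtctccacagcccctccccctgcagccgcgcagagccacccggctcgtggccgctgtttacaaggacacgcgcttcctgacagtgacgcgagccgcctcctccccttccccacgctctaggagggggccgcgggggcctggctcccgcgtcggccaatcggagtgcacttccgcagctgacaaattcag
Btg2: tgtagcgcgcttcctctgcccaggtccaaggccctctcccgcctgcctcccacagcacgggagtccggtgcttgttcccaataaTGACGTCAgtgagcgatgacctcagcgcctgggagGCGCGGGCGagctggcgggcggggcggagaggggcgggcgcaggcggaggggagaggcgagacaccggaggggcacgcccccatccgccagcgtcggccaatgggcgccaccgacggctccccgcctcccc
Klf4: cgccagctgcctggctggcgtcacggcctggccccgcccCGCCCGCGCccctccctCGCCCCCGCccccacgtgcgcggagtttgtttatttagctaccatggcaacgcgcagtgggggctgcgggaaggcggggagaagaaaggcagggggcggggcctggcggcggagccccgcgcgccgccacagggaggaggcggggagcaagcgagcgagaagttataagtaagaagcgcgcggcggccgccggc
Nr4a2: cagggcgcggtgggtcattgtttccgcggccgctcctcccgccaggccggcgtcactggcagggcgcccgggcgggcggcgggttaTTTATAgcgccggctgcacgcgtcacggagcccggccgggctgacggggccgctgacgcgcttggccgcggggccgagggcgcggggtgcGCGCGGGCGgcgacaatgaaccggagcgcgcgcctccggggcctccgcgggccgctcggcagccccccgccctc
Nfkbia: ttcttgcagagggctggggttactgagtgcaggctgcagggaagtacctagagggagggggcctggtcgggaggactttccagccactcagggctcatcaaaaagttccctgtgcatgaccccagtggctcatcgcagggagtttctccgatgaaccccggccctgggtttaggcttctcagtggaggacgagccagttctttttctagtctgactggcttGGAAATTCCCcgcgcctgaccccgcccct
In these letters the Fos window held a TATA box 33 to 28 bases and an NF-kB match 214 to 205 bases before the start, and Btg2 held a CRE 166 to 159 bases and an EGR site 131 to 123 bases before it. The Nfkbia window held an NF-kB match 29 to 20 bases before the start, the Klf4 window EGR sites at 211 to 203 and 194 to 186 bases, and the Nr4a2 window an EGR site at 74 to 66 and a TATA box at 164 to 159 bases. The Junb window held none of the motifs searched, which says only that these letters are not in these bases. EGR sites stood before 10 of the 28 genes (35.7%), against 5.33% of 27025 genes with a window. Their other carriers were Fosb, Fosl2, Klf2, Maff, Nr4a1, Socs3 and Zfp36. The CRE was found in 3 of the 28 (Btg2, Dusp1 and Maff; 10.7% against 1.77% of all genes), the CArG box in 3 (Dusp5, Egr2 and Zfp36; 10.7% against 1.62%) and the NF-kB site in 5 (17.9% against 5.67%). The TATA box stood before 4 of the 28 (14.3%, and 14.3% of all genes) and the AP-1 site before 1, Zfp36l1 (3.57% against 7.82%). A match is a description of the sequence and not evidence of binding.

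Endothelial cells carried the highest summed level of the 36 genes and astrocytes the lowest. In replicates 1, 2 and 3, in that order here and wherever 3 values are given, the genes took 4.66, 5.61 and 4.49% of all UMIs of endothelial cells, 4.92% ± 0.602 (SD, n = 3). The share was 2.57, 2.17 and 4.32% in ependymal cells (3.02% ± 1.14), 2.41, 3.25 and 2.47% in microglia (2.71% ± 0.465) and 3.31, 1.5 and 1.71% in pericytes (2.17% ± 0.993). OPCs stood at 0.979, 1.17 and 1.13% (1.09% ± 0.101) and astrocytes at 0.474, 0.5 and 0.33% (0.435% ± 0.0918). Every endothelial library lay above every library of the other classes and every astrocyte library below them, while ependymal cells, microglia and pericytes overlapped. A summed share cannot tell more of this RNA in each cell from more cells with it, so cells were also thinned to 2000 UMIs each.

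**Figure D1:**
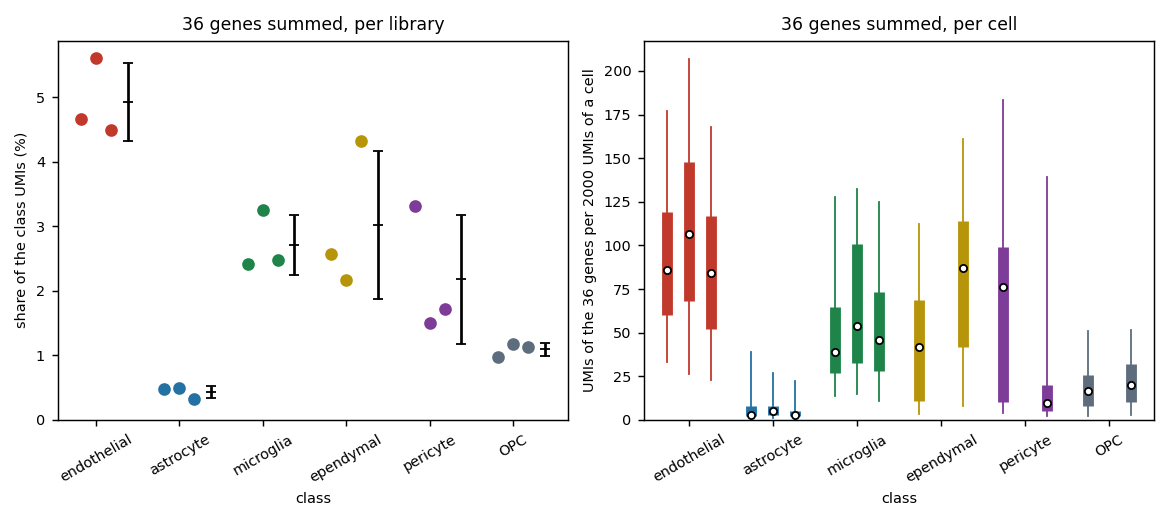
Summed level of the 36 genes in each class. Left, share of the UMIs of a class (%) in replicates 1, 2 and 3, with points for libraries and black bars for the mean ± SD; right, UMIs of the 36 genes in single cells thinned to 2000 UMIs, with the median (white dot), the quartiles (thick bar) and the 5th to 95th percentile (thin line), for libraries with at least 30 such cells. Endothelial libraries lie at 4.49% to 5.61% and astrocyte libraries at 0.330% to 0.500%, and pericytes of replicates 1 and 3 differ in their median (76 and 9.5 UMIs).

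Among single cells astrocytes had the lowest median in every library. Endothelial cells had the highest in replicates 1 and 2, among classes with at least 30 such cells. In replicate 3 ependymal cells stood slightly above them (87 against 84). Of 2000 UMIs, the median endothelial cell had 86, 106.5 and 84 of these genes, and the 5th percentile was still 33, 26.4 and 23. Microglia had medians of 39, 54 and 46, and OPCs 16.5 and 20 in replicates 1 and 3. In the same 2 libraries ependymal cells had medians of 41.5 and 87 and pericytes of 76 and 9.5, so these classes changed their rank with the library. Endothelial cells were thus high almost throughout, not through a few cells. Astrocytes had medians of 3, 5 and 3, but their 95th percentiles reached 39, 26.6 and 22, a long upper tail over a low centre. Astrocytes with a UMI of another class's markers held a mean of 12.9, 15.4 and 11.4 UMIs of the genes, and those without 8.04, 5.52 and 4.65. Astrocytes also differed from the other main classes in quality measures, with 10.1 to 11.8% mitochondrial UMIs against 2.49 to 4.78% in endothelial cells and 1.5 to 4.15% in microglia, and 3.68 to 4.27% ribosomal protein UMIs against 14.4 to 15.1% in microglia. Spearman's rank correlation of the thinned level with a cell's UMIs before thinning was 0.361 and 0.323 in ependymal cells of replicates 1 and 3. In pericytes of these libraries it was -0.0734 and 0.46. The part of these measures and of the other classes' markers in the level of the genes was not tested.

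Levels of single genes are given in CPM, the UMIs of a gene per 1000000 UMIs of the summed cells of a class in a library. The protocol tags the 3′ end of a molecule and the values are not divided by gene length, so genes are not ranked against each other. Each class was set against the unweighted mean of the log2 levels of the other 5 with the quasi-likelihood F-test of edgeR, its p-values adjusted by Benjamini and Hochberg's method over 12508 genes, and "higher" and "lower" below mean an adjusted p under 0.05. TMM scaling, which evens out the bulk of genes between sums, multiplied the totals of microglia by 0.589 to 0.712 and those of OPCs by 1.31 to 1.62, so the tested level stands above the CPM in microglia and below it in OPCs. Without these factors the median difference over all genes tested moved from 0.04 to -0.70 in microglia, from -0.03 to 0.53 in OPCs and from -0.32 to 0.13 in pericytes. Fosl1, an AP-1 subunit, did not pass the filter on low counts, with 12.1, 11.5 and 1.69 CPM in endothelial cells and 0 in the OPCs of each library, and 35 genes were tested.

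Endothelial cells, microglia and ependymal cells each showed most of the tested genes above the other classes, astrocytes showed all 35 below them, OPCs most of them below, and pericytes stood in the middle. In endothelial cells 30 of 35 were higher and 2 lower (Myc and Cebpb), beside 32.5% and 18.6% of all genes tested, with a median log2 difference of 2.07 against 0.10 over all genes. In astrocytes 0 were higher and 35 lower, beside 30.4% and 18.4% of all genes, with a median of -2.38 against 0.14. The low level in astrocytes thus reached every role described below, from AP-1 to Rhob. In microglia 25 were higher and 4 lower, beside 32.5% and 23.1% of all genes, with a median of 1.41 against 0.04. Without scaling factors the microglial counts were 17 and 6, and of the genes called with them Dusp1, Dusp6 and Zfp36l1 then had the opposite sign. In ependymal cells 26 were higher and 1 lower (Dusp6), beside 23.1% and 16.1% of all genes, with a median of 1.48 against -0.10. Without replicate 3 these counts were 17 and 2, with ependymal cells then a single library assumed to vary like the other classes. In OPCs 0 were higher and 28 lower, beside 23.5% and 19.6% of all genes, with a median of -1.65 against -0.03. In pericytes 5 were higher and 5 lower, beside 10% and 9.85% of all genes, so their counts stood near those of genes at large. The pericyte counts were 8 and 2 without scaling factors, 3 and 12 without replicate 1, and 7 and 1 without replicate 2.

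**Figure D2:**
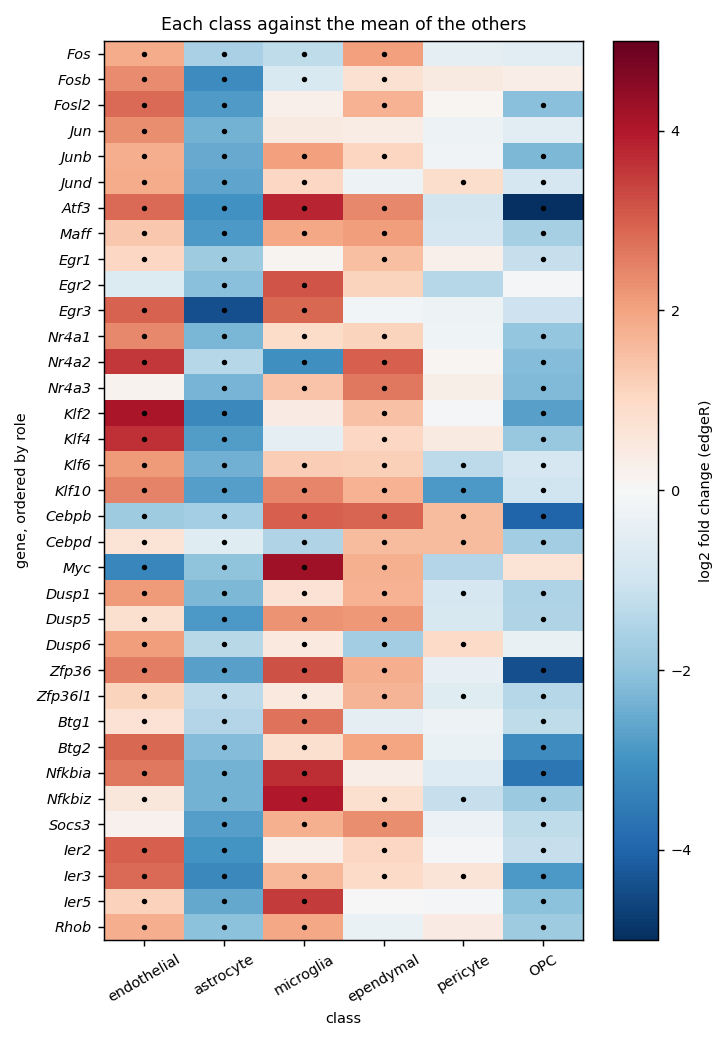
Log2 difference (edgeR) of each class from the mean of the other 5 classes for the 35 tested genes, ordered by role; a black dot marks an adjusted p under 0.05. The endothelial column holds 30 red and 2 blue cells with a dot, the astrocyte column 35 blue cells with a dot and the OPC column 28, and the pericyte column holds 10 dots.

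The AP-1 genes, which encode the FOS and JUN subunits and their relatives ATF3 and MAFF, were higher in endothelial cells for all 8 tested (median log2 difference 2.09) and lower in astrocytes for all 8 (-2.74). Microglia split the family: Junb, Jund, Atf3 and Maff were higher, Fos and Fosb lower, and Jun and Fosl2 were not called. Fos measured 3975, 6096 and 3733 CPM in endothelial cells, 4696, 4774 and 7574 in ependymal cells and 525, 635 and 555 in microglia. Microglia lay below every endothelial and ependymal library and overlapped astrocytes (925, 767 and 416 CPM). Against the mean of the other classes Fos differed by 1.86 ± 0.25 (SE; edgeR adjusted p = 4.62e-07) in endothelial cells, 2.03 ± 0.30 (SE; edgeR adjusted p = 3.47e-06) in ependymal cells and -1.29 ± 0.30 (SE; edgeR adjusted p = 0.000715) in microglia. Junb, whose protein pairs with FOS and often tempers JUN, measured 2203, 4417 and 3681 CPM in microglia and 2865, 4332 and 4265 in endothelial cells. These ranges overlapped, and the pair did not differ beyond its spread, with a log2 difference of endothelial cells from microglia of -0.22 ± 0.29 (SE; edgeR adjusted p = 0.554).

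Atf3, a stress-induced factor that mostly represses its targets, measured 2754, 2963 and 1445 CPM in microglia, 2022, 2247 and 1049 in endothelial cells and 32.8, 41.1 and 18.9 in OPCs. OPCs were low throughout, overlapping only astrocytes (61.9, 106 and 38.9 CPM), and no OPC library came near a microglial library. The difference from the other classes was 3.81 ± 0.26 (SE; edgeR adjusted p = 5.94e-13) in microglia and -5.09 ± 0.49 (SE; edgeR adjusted p = 2.02e-09) in OPCs. Fos itself behaved otherwise in OPCs, at 1994, 1808 and 1908 CPM, with a difference of -0.52 ± 0.29 (SE; edgeR adjusted p = 0.16). Jun (-0.54) and Fosb (0.35) were not called in OPCs either, so the AP-1 genes not called there were Fos, Fosb and Jun, while Fosl2, Junb, Jund, Atf3 and Maff were lower. Jun measured 7177, 7614 and 7421 CPM in endothelial cells, an SD of 219 over the libraries, and was higher there by 2.31 ± 0.23 (SE; edgeR adjusted p = 2.92e-09). It was lower in astrocytes (748, 578 and 347 CPM), and in the other classes its difference was not called. Jund, the most constantly made JUN protein, was the AP-1 gene called in pericytes, at 7226, 2764 and 1709 CPM, with replicate 1 more than the other libraries, and a difference of 0.88 ± 0.26 (SE; edgeR adjusted p = 0.0156).

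Among the EGR zinc-finger factors, Egr1 and Egr3 were higher in endothelial cells, and Egr2 and Egr3 in microglia. Egr2 measured 75.4, 102 and 42.4 CPM in microglia and 8.73, 11.8 and 9.33 in endothelial cells, and microglia differed from the mean of the others by 3.16 ± 0.25 (SE; edgeR adjusted p = 1.42e-11). Egr3 showed the largest astrocyte difference of the 35 genes, at 1.65, 2.17 and 0.689 CPM against 91.6, 145 and 53.7 in endothelial cells and 74.3, 59.3 and 51.5 in microglia, a difference of -4.41 ± 0.43 (SE; edgeR adjusted p = 1.55e-09). Every astrocyte library lay below every library of both those classes. Egr1 measured 1166, 1078 and 1679 CPM in ependymal cells, 959.6, 934 and 871 in endothelial cells and 224, 330.2 and 85.1 in astrocytes. It was higher in ependymal cells by 1.51 ± 0.29 (SE; edgeR adjusted p = 0.000144) and did not pass the test in microglia (0.15).

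The NR4A orphan nuclear receptors, which act without a known physiological ligand, were higher in ependymal cells for all 3, and microglia had more Nr4a1 and Nr4a3 but less Nr4a2. Nr4a2 (also called Nurr1) measured 288, 311 and 215 CPM in endothelial cells, 151, 154 and 326 in ependymal cells and 3.37, 4.48 and 5.74 in microglia. Microglia were low in each library, below every endothelial and ependymal library, and overlapped OPCs (2.53, 41.1 and 30.3 CPM). The differences were 3.53 ± 0.25 (SE; edgeR adjusted p = 2.49e-12) in endothelial cells, 3.0 ± 0.34 (SE; edgeR adjusted p = 3.54e-08) in ependymal cells and -3.05 ± 0.42 (SE; edgeR adjusted p = 5.4e-07) in microglia. In microglia the call ended, at -0.46 with an edgeR adjusted p of 0.967, among thinned cells without markers of other classes, where ependymal cells and pericytes dropped out of the comparison. Nr4a3 was highest in ependymal cells of replicate 3, with 96, 0 and 406 CPM, and differed there by 2.64 ± 0.39 (SE; edgeR adjusted p = 4.29e-06). Nr4a1 was higher in endothelial cells (1099, 1699 and 927 CPM; 2.39), ependymal cells (1.11) and, less far, microglia (0.92).

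The Krüppel-like factors were higher in endothelial cells for all 4 genes, and Klf2 and Klf4, factors known for the response of endothelium to flow, showed the largest endothelial differences of the 35 genes. Klf2 measured 4122, 3406 and 2868 CPM in endothelial cells, 794, 963 and 1089 in ependymal cells, 433, 153 and 351 in microglia and 47, 102 and 39.3 in astrocytes. The lowest endothelial library stood above the highest library of any other class. Klf2 was higher in endothelial cells by 4.07 ± 0.25 (SE; edgeR adjusted p = 8.15e-14) and lower in astrocytes at -3.21 ± 0.38 (SE; edgeR adjusted p = 7.77e-08). Klf4 measured 1779.9, 2287 and 1609.6 CPM in endothelial cells and 119, 129 and 140 in microglia, with an endothelial difference of 3.66 ± 0.18 (SE; edgeR adjusted p = 8.28e-16). Both genes were also set against single classes: endothelial Klf2 exceeded ependymal Klf2 by 2.15 ± 0.45 (SE; edgeR adjusted p = 0.000211), and endothelial Klf4 exceeded pericyte Klf4 by 2.66 ± 0.30 (SE; edgeR adjusted p = 4.48e-08). Klf6 and Klf10, the latter an early target of TGF-beta, were higher in endothelial cells, microglia and ependymal cells and lower in pericytes. Klf10 measured 5.63, 19.7 and 0 CPM in pericytes and 88, 161 and 87.8 in endothelial cells, and differed in pericytes by -2.88 ± 0.56 (SE; edgeR adjusted p = 0.000383). Its pericyte level rested on only 3 UMIs over all libraries. Klf6 differed there by -1.32 ± 0.31 (SE; edgeR adjusted p = 0.00279), and without replicate 2 by -0.84 with an edgeR adjusted p of 0.151. The Klf6 call was also lost with at least 2 UMIs of each marker (-0.73, edgeR adjusted p of 0.202) and with at least 20 cells in a sum (-0.82, edgeR adjusted p of 0.14). The Klf10 difference became -1.77, with an edgeR adjusted p of 0.102, when at least 2 UMIs of each marker were asked for.

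Myc, a growth factor-induced regulator of cell growth, and Cebpb, which drives acute-phase and inflammatory genes, were the 2 genes lower in endothelial cells, while the related Cebpd was higher there. Myc measured 101, 229 and 105 CPM in microglia, 1.78, 1.92 and 2.65 in endothelial cells and 4.78, 6.52 and 3.79 in astrocytes. It was the gene furthest above the other classes in microglia, by 4.26 ± 0.18 (SE; edgeR adjusted p = 3.86e-17), and furthest below them in endothelial cells, at -3.25 ± 0.42 (SE; edgeR adjusted p = 2.29e-07). Cebpb measured 770.1, 1499 and 1272 CPM in microglia, 1314, 616 and 2250.4 in ependymal cells, 1401, 849 and 732 in pericytes and 93.5, 109 and 87.6 in endothelial cells. Endothelial cells and astrocytes formed the low group with OPCs (49.2, 27.4 and 35.9 CPM), and the other classes the high group. Cebpb was higher in ependymal cells by 2.91 ± 0.23 (SE; edgeR adjusted p = 3.6e-11) and in pericytes by 1.58 ± 0.22 (SE; edgeR adjusted p = 3.04e-06), and lower in endothelial cells at -1.78 ± 0.25 (SE; edgeR adjusted p = 7.56e-07) and in OPCs at -4.0 ± 0.34 (SE; edgeR adjusted p = 1.58e-10). The endothelial difference was -0.16, with an edgeR adjusted p of 0.849, among thinned cells without markers of other classes, where ependymal cells and pericytes, both high for Cebpb, had dropped out. Cebpd measured 1114, 395 and 385 CPM in pericytes and 47, 44.8 and 71.9 in microglia. It was higher in pericytes by 1.59 ± 0.25 (SE; edgeR adjusted p = 2.21e-05) and lower in microglia at -1.52 ± 0.27 (SE; edgeR adjusted p = 2.57e-05), and this microglial call too ended among thinned cells without other markers (-0.37, edgeR adjusted p of 0.338).

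**Figure D3:**
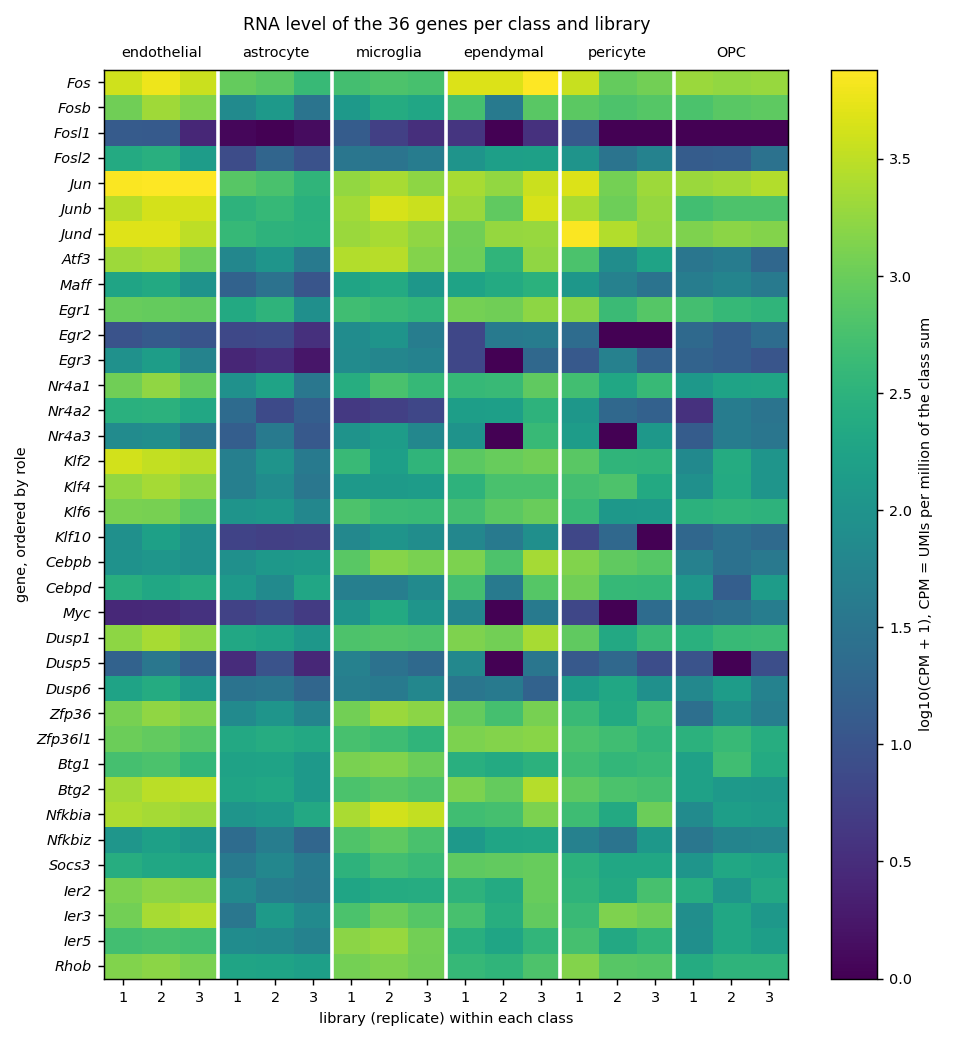
RNA level of each of the 36 genes, as log10(CPM + 1), in the 6 classes with replicates 1, 2 and 3 side by side, ordered by role. Astrocyte columns are the darkest; Klf2 and Klf4 are brightest in endothelial cells, Myc and Nfkbiz in microglia, and the zero levels of ependymal replicate 2 rest on 8 cells.

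Nfkbia and Nfkbiz, of the NF-kB pathway, and Socs3, which limits cytokine receptors, were higher in microglia for all 3 and lower in astrocytes and OPCs for all 3. Nfkbia, which encodes IkB-alpha, measured 2462, 4092 and 3403 CPM in microglia and 2529, 2305 and 2010 in endothelial cells, against 106, 124 and 217 in astrocytes and 73.2, 151 and 132 in OPCs. It was higher in microglia by 3.67 ± 0.22 (SE; edgeR adjusted p = 4.77e-14) and in endothelial cells by 2.63 ± 0.22 (SE; edgeR adjusted p = 9.72e-11). Its microglial level exceeded the endothelial level in the test, with a log2 difference of endothelial cells from microglia of -0.87 ± 0.32 (SE; edgeR adjusted p = 0.0222), although in replicate 1 the endothelial CPM was slightly the larger. Nfkbiz, a nuclear IkB protein that helps NF-kB at secondary targets, measured 655, 816 and 591 CPM in microglia and no more than 199.7 in any library of another class, and was higher in microglia by 4.0 ± 0.17 (SE; edgeR adjusted p = 3.14e-17). Microglia therefore stood apart for this gene, with no overlap. Nfkbiz was lower in pericytes at -1.17 ± 0.34 (SE; edgeR adjusted p = 0.0135), a call lost with at least 2 UMIs of each marker (-1.21, edgeR adjusted p of 0.0653), with at least 20 cells in a sum (-0.58, edgeR adjusted p of 0.319), with DESeq2 (-0.98, adjusted p of 0.0502), without replicate 2 (-0.59, edgeR adjusted p of 0.35) and without scaling factors (-0.71, edgeR adjusted p of 0.15). Socs3 was highest in ependymal cells, at 823, 886 and 962 CPM, where it differed by 2.31 ± 0.20 (SE; edgeR adjusted p = 1.7e-10), and was not called in endothelial cells (0.21).

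Zfp36 (tristetraprolin) and its relative Zfp36l1, which bind AU-rich messages and lead them to decay, were higher in endothelial cells, microglia and ependymal cells with TMM scaling, while Zfp36l1 in microglia had the opposite sign without it. Zfp36 measured 1131, 2017 and 1603 CPM in microglia, 1203, 1741 and 1354 in endothelial cells and 25.3, 82.2 and 45.4 in OPCs. Its OPC difference of -4.40 ± 0.32 (SE; edgeR adjusted p = 1.12e-11) was among the 3 largest of that class, and every OPC library lay far below the microglial and endothelial ones. Btg2 was higher in endothelial cells (2190.4, 3025 and 3232 CPM; 2.85 ± 0.18 (SE; edgeR adjusted p = 2.6e-13)), whereas its relative Btg1 was highest in microglia (1255, 1416 and 1039.7 CPM; 2.73 ± 0.16 (SE; edgeR adjusted p = 6.84e-14)). Among the MAP kinase phosphatases, Dusp1, which acts on p38 and JNK in the nucleus, was highest in endothelial and ependymal cells, at 1649, 2387 and 1667 and 1372, 1117 and 2377 CPM. Dusp6, which acts on ERK in the cytoplasm, parted from it: it measured 32, 38.5 and 15.8 CPM in ependymal cells, 176, 247 and 125 in endothelial cells and 141, 207 and 88.8 in pericytes. Ependymal cells were lower for Dusp6 at -1.74 ± 0.37 (SE; edgeR adjusted p = 0.0004), endothelial cells higher by 2.07 ± 0.17 (SE; edgeR adjusted p = 4.12e-11) and pericytes higher by 0.96 ± 0.30 (SE; edgeR adjusted p = 0.0217). The pericyte call on Dusp6 missed the threshold in thinned cells (0.41, edgeR adjusted p of 0.581), with at least 20 cells in a sum (1.04, edgeR adjusted p of 0.0616) and without replicate 1 (0.95, edgeR adjusted p of 0.0511). Dusp5 stayed at or under 64 CPM in every library of every class.

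The Ier genes, short nuclear or stress proteins named for their early induction, were higher in endothelial cells for all 3 and lower in astrocytes and OPCs for all 3. Ier3, which affects cell survival, measured 1154, 2368 and 2856 CPM in endothelial cells and 33.2, 128 and 70.8 in astrocytes, where it differed by -3.22 ± 0.24 (SE; edgeR adjusted p = 1.12e-11). Ier5 leaned to microglia (1607, 1892 and 1137 CPM against 507, 555 and 503 in endothelial cells), with a difference of 3.50 ± 0.18 (SE; edgeR adjusted p = 3.18e-15) and no overlap with another class. Rhob, an early-response small GTPase, measured 1416, 1625 and 1279.9 CPM in endothelial cells and 1189, 1329 and 1084 in microglia, which did not differ beyond their spread, with a log2 difference of -0.13 ± 0.26 (SE; edgeR adjusted p = 0.707).

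Pairs of classes gave the order of the groups. Endothelial cells had 33 of 35 higher and 1 lower, beside 31.9% and 33.7% of all genes, when set against astrocytes, and against OPCs 33 of 35 higher and 1 lower, beside 29% and 25.5% of all genes. Endothelial cells and microglia were closer, with 16 of 35 higher and 10 lower, beside 27.5% and 28.4% of all genes, and several families were divided between them. On the endothelial side stood Fos, Fosb, Fosl2, Jun, Nr4a1, Nr4a2, Klf2, Klf4, Klf6, Cebpd, Dusp1, Dusp6, Zfp36l1, Btg2, Ier2 and Ier3. On the microglial side stood Egr2, Nr4a3, Myc, Cebpb, Dusp5, Btg1, Nfkbia, Nfkbiz, Socs3 and Ier5. The count on that side was near the share of all genes called lower. Against ependymal cells endothelial cells had 16 of 35 higher and 6 lower, beside 27.7% and 24.8% of all genes. Microglia against ependymal cells gave 13 of 35 higher and 9 lower, beside 29.3% and 27.3% of all genes. Astrocytes set against ependymal cells had 0 of 35 higher and 34 lower, beside 21.2% and 19.8% of all genes. Microglia against pericytes gave 21 of 35 higher and 4 lower, beside 24.1% and 13.7% of all genes, and ependymal cells against OPCs 27 of 35 higher and 1 lower, beside 23.2% and 21.4% of all genes. Astrocytes against OPCs, the lowest 2 classes, gave 6 of 35 higher and 13 lower, beside 21.7% and 18.3% of all genes. For Fos the order of CPM, without scaling factors, ran from ependymal cells (5681 ± 1639 CPM, SD, n = 3, with the 8 cells of replicate 2) and endothelial cells (4601 ± 1299.8) over OPCs (1903 ± 92.8) and pericytes (1887 ± 1475) to astrocytes (703 ± 260.1) and microglia (572 ± 56.5). The tests used TMM scaling, with which pericytes against OPCs and astrocytes against microglia had signs opposite to this order. Within each of these neighbouring pairs Fos did not differ beyond its spread: endothelial from ependymal cells by -0.14 ± 0.41 (SE; edgeR adjusted p = 0.795), pericytes from OPCs by 0.03 ± 0.37 (SE; edgeR adjusted p = 0.989) and astrocytes from microglia by -0.27 ± 0.36 (SE; edgeR adjusted p = 0.519). Between them, endothelial cells exceeded OPCs by 1.98 ± 0.37 (SE; edgeR adjusted p = 4.77e-05), while astrocytes set against pericytes, at -0.94 ± 0.37 (SE; edgeR adjusted p = 0.0504), just missed the threshold.

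Libraries differed most in pericytes and ependymal cells. Ratios were taken for genes at 20 CPM or more on average and above 0 in every library. This left out Nr4a3, Myc and Dusp5 in ependymal cells and Nr4a3 in pericytes, each at 0 in replicate 2. The highest library exceeded the lowest by a median of 1.48 times in endothelial cells, 1.61 in microglia, 1.8 in OPCs, 1.96 in astrocytes, 2.13 in ependymal cells and 2.8 in pericytes. In pericytes replicate 1 stood out, with Fos at 3585, 928 and 1147 CPM, Jun at 4756, 1185 and 2027 and Jund at 7226, 2764 and 1709. The heat shock genes moved with it, at 38181, 9912 and 9981 CPM for 10 genes summed. Markers of other cells differed in these pericytes too: border macrophage markers summed to 1497, 19.7 and 29.6 CPM with 3, 1 and 1 of 4 detected (Cd163 at 0 in all), and fibroblast markers to 585, 2863 and 703 CPM with 1, 3 and 3 of 3 detected (Lum and Col1a1 at 0 in replicate 1). The part of these cells in the library difference was not tested. In ependymal cells replicate 3 was highest, for example Junb at 1954, 847 and 4367 CPM, and the 3 astrocyte markers, all detected, summed to 936, 1271 and 897 CPM there against 12372 to 14664 in astrocytes. In endothelial cells erythrocyte genes summed to 10504, 18341 and 17346 CPM with all 5 detected, and Fosb, at 1077, 2095 and 1391 CPM, was highest in replicate 2, as was the summed level. Neither relation was tested.

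Within every class the genes varied together from cell to cell more than genes at large. Pearson's r was taken over the cells of a class within a library, on log2(UMIs + 1) after thinning to 2000 UMIs, and averaged over libraries with at least 30 cells, as a description and without a p. Over all pairs of the genes with a mean of at least 0.1 UMI, the mean r was 0.131 in endothelial cells (32 genes, 4026 cells), 0.131 in microglia (32 genes, 1516 cells), 0.304 in astrocytes (23 genes, 1432 cells) and 0.298 in ependymal cells (30 genes, 151 cells). Pericytes gave 0.263 (30 genes, 73 cells) and OPCs 0.115 (23 genes, 194 cells). All pairs of genes at 0.2 UMI or more averaged 0.00139 to 0.00679. At that same minimum the pairs of the set averaged 0.136 in endothelial cells to 0.307 in ependymal cells. The set and genes at large were not matched for level above the minimum, and the part of the level in r was not tested. Of the pairs within the set, 297 of 496 exceeded the 95th percentile of all gene pairs in endothelial cells, 204 of 253 in astrocytes, 232 of 496 in microglia, 292 of 435 in ependymal cells, 166 of 435 in pericytes and 52 of 253 in OPCs. Pericyte pairs with Nr4a2, which did not vary among the pericytes of a library, could not be averaged. They were counted among the 435 as not exceeding the percentile. All pairs of a library share its cells and their depth. Among astrocytes without a UMI of other classes' markers the mean r was 0.214 over 15 genes.

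In endothelial cells Junb and Fos had the highest mean r to the other genes (0.25 and 0.25), and all of the 3 strongest pairs held Fos. The r of Fos was 0.54 (0.53 to 0.55) with Junb (lowest and highest library in parentheses), 0.52 (0.48 to 0.59) with Jun and 0.52 (0.50 to 0.54) with Zfp36. Klf2 and Klf4, the genes furthest above other classes there, also had Fos as their best partner (r of 0.41 and 0.37). Nfkbia went instead with Ier3 (0.35) and its r with Jun was -0.08 (-0.18 to 0.01), the lowest of the 496 pairs. In microglia Zfp36 and Junb had the highest mean r to the other genes (0.27 and 0.26). In the 3 strongest pairs r was 0.63 (0.57 to 0.66) for Junb with Zfp36, 0.60 (0.50 to 0.72) for Junb with Nfkbia and 0.55 (0.47 to 0.64) for Zfp36 with Nfkbia. Fos in microglia had Fosb as its best partner, at 0.34, and Klf2 ran apart, with r of -0.13 (-0.31 to -0.00299) to Nfkbia. Whether the classes differ in these pairs was not tested.

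In the other classes AP-1 genes stood in most of the 3 strongest pairs. In astrocytes r was 0.63 (0.58 to 0.73) for Fos with Egr1, 0.62 (0.58 to 0.67) for Junb with Egr1 and 0.61 (0.53 to 0.67) for Fos with Jun. In ependymal cells, over replicates 1 and 3, r was 0.79 (0.76 to 0.82) for Fos with Junb, 0.72 (0.71 to 0.73) for Jun with Junb and 0.71 (0.69 to 0.74) for Egr1 with Btg2. FOS and JUN proteins bind DNA as AP-1 dimers, and EGR1 is a zinc-finger activator. In OPCs, low for most of the set, r was 0.56 (0.50 to 0.61) for Fosb with Jun, 0.52 (0.50 to 0.54) for Fos with Jun and 0.50 (0.47 to 0.53) for Fos with Fosb, followed by 0.50 (0.49 to 0.51) for Fosb with Jund and 0.49 (0.43 to 0.55) for Fos with Egr1, both with a gene called lower in OPCs. Pericytes, with 73 cells, had their highest r for Jun with Egr1, at a mean of 0.84. Next came r of 0.79 (0.76 to 0.81) for Fos with Jun, 0.78 (0.72 to 0.85) for Fos with Egr1 and 0.74 (0.58 to 0.90) for Fosb with Nr4a1.

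**Figure D4:**
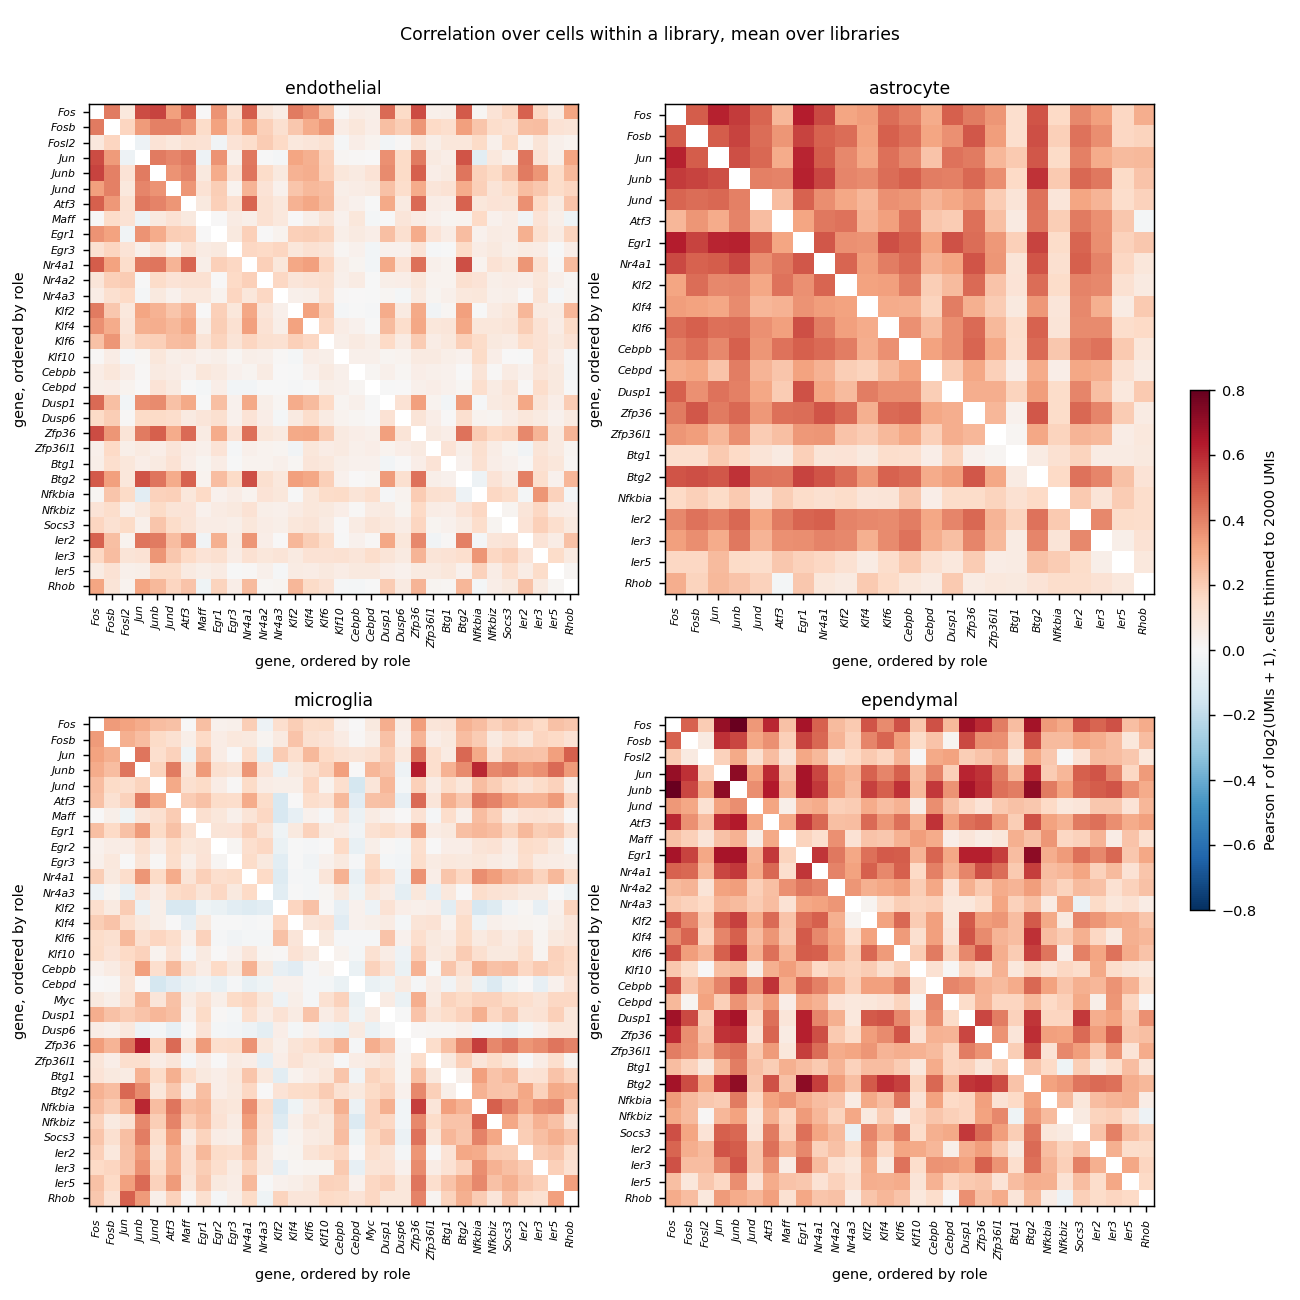
Pearson's r between pairs of the genes over single cells within a library, averaged over libraries, in endothelial cells, astrocytes, microglia and ependymal cells; genes are ordered by role and the diagonal is blank. Endothelial cells show high r around Fos and Junb (Fos with Junb 0.54), microglia high r among Junb, Zfp36 and Nfkbia (Junb with Zfp36 0.63), and astrocytes and ependymal cells positive r across most pairs.

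The genes outside the set that best followed its summed level are given by class, and differences between the lists were not tested. In endothelial cells the 10 leading genes included Apold1 (an early gene of endothelium; r of 0.41), Cyr61 (0.38), the heat shock gene Hspb1 (0.38), Plk2 (0.35), Actb, Hspa1a, Actg1, H3f3b and Hspa1b. In microglia they included Tnfaip3, a brake on NF-kB (0.45), the activation marker Cd83 (0.45), Ccrl2 (0.43), Mcl1, Sgk1, Malat1, Ccnl1, H3f3b and the chemokine Ccl4 (0.38). Astrocytes gave Cyr61 (0.44), Gadd45g (0.43), Pnrc1, Hsp90aa1, Tuba1a, Vim, Rarres2, Pltp, Tmsb4x and Map1lc3a. Among the 10 of ependymal cells were Pnrc1 (0.46), Ppp1r15a, Bhlhe40, Csrnp1, Gadd45g, Gadd45b, Cxcl10, Sox9 and Tsc22d1. Among those of OPCs were Adamts1 (0.33), B230209E15Rik, Taf1d, Cyr61, Gadd45g, Msmo1, Oaz1 and Tsc22d1. Among those of pericytes were Hspa1a (0.67), Hspa1b (0.65), Ppp1r15a, Kcne4, Cyr61, Gadd45b, Dnajb1, Cxcl1 and Hsp90ab1. Cyr61 recurred in the lists of endothelial cells, astrocytes, OPCs and pericytes, and the heat shock genes Hspa1a and Hspa1b were among the 10 in pericytes and endothelial cells. Per cell, Spearman's rank correlation between the summed set and the 10 heat shock genes was 0.841 and 0.474 in pericytes of replicates 1 and 3, 0.489, 0.474 and 0.219 in endothelial cells and 0.19, 0.237 and 0.118 in astrocytes. This correlation was 0.453, 0.0558 and 0.192 in microglia. In replicates 1 and 3 it was 0.176 and 0.175 in ependymal cells and 0.206 and 0.17 in OPCs.

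Other genes of the response, from lists that do not overlap the 36, were counted in the same test. Their counts are to be read against the shares of all genes called higher and lower, which were 32.5% and 18.6% in endothelial cells, 32.5% and 23.1% in microglia, 23.1% and 16.1% in ependymal cells, 10% and 9.85% in pericytes, 23.5% and 19.6% in OPCs and 30.4% and 18.4% in astrocytes. Several counts lay near these shares, such as the genes lower in microglia among the first list and the heat shock genes higher in ependymal cells. Of 30 tested primary response genes, counts were 20 higher and 4 lower in endothelial cells, 18 higher and 9 lower in microglia, 14 higher and 3 lower in ependymal cells, 6 higher and 5 lower in pericytes, 4 higher and 18 lower in OPCs and 3 higher and 19 lower in astrocytes. Of 19 genes of the induction machinery (kinases, SRF, ELK, CREB and NF-kB proteins), counts were 13 higher and 1 lower in microglia, 12 higher and 1 lower in endothelial cells, 0 higher and 0 lower in pericytes, 1 higher and 9 lower in OPCs and 0 higher and 13 lower in astrocytes. Of 10 heat shock genes, counts were 7 higher and 0 lower in endothelial cells, 5 higher and 0 lower in microglia, 4 higher and 0 lower in pericytes, 3 higher and 3 lower in ependymal cells, 0 higher and 7 lower in OPCs and 0 higher and 9 lower in astrocytes. In ependymal cells, high for most of the 36, the induction machinery had 0 higher and 5 lower. Spry2 and Spred1, which restrain RAS-ERK signalling, were higher in astrocytes by 2.23 ± 0.14 (SE; edgeR adjusted p = 2.02e-13) and 1.69 ± 0.13 (SE; edgeR adjusted p = 1.15e-11), and lower in endothelial cells at -1.61 ± 0.17 (SE; edgeR adjusted p = 5.6e-09) and -2.23 ± 0.16 (SE; edgeR adjusted p = 1.75e-12).

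By class, the genes of these lists furthest from the others were as follows. Microglia had more Dusp2, an immune-cell MAP kinase phosphatase, by 5.94 ± 0.23 (SE; edgeR adjusted p = 6.17e-18), and more of the NF-kB subunit gene Rel by 5.06 ± 0.23 (SE; edgeR adjusted p = 1.06e-16), and less Cyr61 (-4.58) and Spry2 (-4.31). Endothelial cells had more Hspb1 by 5.32 ± 0.31 (SE; edgeR adjusted p = 2.87e-14) and Hspa1b by 4.12 ± 0.25 (SE; edgeR adjusted p = 6.71e-14). Ependymal cells had more Dusp14 by 5.30 ± 0.37 (SE; edgeR adjusted p = 4.69e-12) and more Arc, best known from active neurons, by 4.63 ± 0.46 (SE; edgeR adjusted p = 4.34e-09), with a mean of 53.9 CPM, and less Spry4 (-3.33) and Elk3 (-2.55). Of 4 neuronal markers 2, 0 and 1 were detected in these cells, at 352, 0 and 609.6 CPM in all, with Snap25 and Rbfox3 at 0 in each library, and their part in the Arc level was not tested. Pericytes had more Spry4 (3.68) and Hspa1a (2.79) and less Gadd45g (-2.87) and Trib1 (-2.29). OPCs had more Spry4 (2.51) and Spry2 (1.90) and less Ctgf (-4.47) and Hspb1 (-3.59), and astrocytes had less Hspa1b (-3.79) and Sgk1 (-3.77).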

How the data were processed

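The deposited tables hold whole-number UMI counts per gene and cell barcode for each library, made by the authors with Cell Ranger on mm10, per the submitters' processing notes. No version of Cell Ranger was given in the sources used here. Raw counts were used as deposited, with 31053 genes, of which 2411 symbols had dots in place of hyphens and were restored to names in GENCODE M21. A barcode was kept with 500 or more UMIs, 300 or more genes and no more than 20% of UMIs from mitochondrial genes, and doublets called by Scrublet in scanpy 1.11.5 (assumed rate 0.06) were removed. Libraries held 7241, 1062 and 6456 barcodes and 45716237, 7185668 and 40377042 UMIs, and 6240, 945 and 4930 cells were kept. UMI totals set the counting error of each value, which is largest in replicate 2.

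The UMIs of each class were added up within a library (minimum 10 cells) and tested with edgeR 4.0.16 (limma 3.58.1, R 4.3.3) with TMM scaling and the library as a block. Each of 6 classes was set against the mean of the others, and 15 pairs were compared. SEs are the log2 difference divided by the square root of F. The 18 class markers were left out of the tests. The fit was tested on simulated data. Alternatives included DESeq2 1.42.0, other scaling and filters, leaving out each library, and thinned cells. Named genes were the 3 furthest in each direction per class among those called with the same sign throughout the libraries and 20 CPM or more on either side, the 3 pairs of highest correlation per class, 10 other genes per class that followed the summed level and 2 per direction from the other lists. Further members named to describe a role were chosen after their values were seen. Members and gene lists were chosen with earlier results of these data known. Some genes that met these rules are not reported here.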

Additional observations from a re-analysis of the deposited data

Results flagged for a closer look

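Barcodes outside the classes also carried RNA of the 36 genes, with no control samples to set them against. Kept cells in no class gave the genes a mean of 2.20% of their UMIs over the 3 libraries. Cells complete for more than 1 class gave 3.50%. Barcodes over 20% mitochondrial UMIs, which had been filtered out, gave 0.405%, near the astrocyte share of 0.435%. In these 2223 barcodes astrocyte markers summed to 12059, 6353 and 8077 CPM. Endothelial markers summed to 124, 361 and 203 CPM there and microglial markers to 185, 325 and 298 CPM. Called doublets, also removed, gave 3.73%. No limit was applied to these values. They are given because these barcodes entered no main test, and the origin of their RNA was not tested.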

How the results depend on the processing

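Of 188 counts of genes called under alternatives, 164 stayed within 1.5 times the reported count, and of 422 values of named genes 407 kept their direction and side of the threshold, 15 lost the call and 0 changed sign. These values belong to 27 results chosen as the largest called differences with 1 sign in every library, so their stability was partly set by that choice. Outside them, 3 of the 29 genes called in microglia (Dusp1, Dusp6 and Zfp36l1) changed sign without scaling factors. Pericytes, with the fewest cells, moved most. Their higher count was 3 in cells thinned to 2000 UMIs and 8 without scaling factors, with 3 to 7 when a library was left out. Their lower count was 3 with RLE size factors, 2 with DESeq2, 9 with no filter on low counts, 3 with no replicate block, 3 with stricter cell filters, 0 with at least 2 UMIs of each marker, 1 with at least 20 cells a sum, 3 with astrocyte and ependymal barcodes counted as ependymal and 2 without scaling factors, with 1 to 12 when a library was left out. In ependymal cells the higher count was 17 to 28 and the lower count 1 to 2 when a library was left out; without replicate 1 or 3 a single ependymal library remained, assumed to vary like the other classes, so this range does not measure stability. The lower count was 2 with at least 2 UMIs of each marker and 2 with the astrocyte and ependymal barcodes added. In OPCs the higher count was 1 with at least 2 UMIs, 1 in thinned cells, 1 in thinned cells without other classes' markers and 2 without scaling factors. In those thinned cells without other markers the lower counts of endothelial cells and microglia were 1 each, against only 3 other classes.

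The library paired the sums, since every class came from the same 3 libraries. Without the replicate block the higher and lower counts were 29 and 2 in endothelial cells, 0 and 34 in astrocytes, 24 and 4 in microglia, 23 and 1 in ependymal cells and 4 and 3 in pericytes.

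The mean correlation was 0.167 in endothelial cells at 4000 UMIs per cell. In astrocytes it was 0.233 at 1000 UMIs, 0.378 without the log and 0.214 without other classes' markers. In ependymal cells it was 0.192 at 1000 UMIs, 0.306 at 4000, 0.252 without the log, 0.309 with stricter cell filters and 0.280 with the astrocyte and ependymal barcodes added. In OPCs it was 0.0900 at 1000 UMIs, 0.149 without other markers and 0.115 to 0.134 when a library was left out. No value could be given for pericytes at 4000 UMIs, or for ependymal cells and pericytes without other markers, for want of cells. Beyond what the fewer cells or classes of a setting imply, the cause of these shifts was not tested. Scaling without factors, the added barcodes and the cells without other markers were chosen after seeing the data. The 8 to 17 cells of the rare classes in replicate 2 limit those values most.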
